A study of Tupaia belangeri chinensis with 12 samples.

Results

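TRNP1 and the 3 FLRT genes, FLRT1, FLRT2 and FLRT3, were followed through 4 layers of developing cortex in Chinese tree shrew fetuses. These 4 genes were taken by their symbols from the 81418 gene IDs of the deposited annotation. Libraries of polyadenylated RNA had been made from tissue cut out by laser at embryonic day 37, with 3 libraries each of the cortical plate (CP), where neurons settle, the outer subventricular zone (OSVZ) and inner subventricular zone (ISVZ), which hold progenitors and migrating neurons, and the ventricular zone (VZ), where radial glia line the ventricle. No strain, genotype or treatment is named for any library. Whether different animals gave the 3 libraries of a layer is not said in the labels, and p-values therefore reflect only the spread among these libraries, part of which could be technical. Each layer is a cut region and can hold several cell types.

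TRNP1 encodes a nuclear protein of neural stem cells and neurons. In the mouse, a high level in radial glia favours their self-renewal, and lowering it in the embryonic cortex expands basal progenitors and produces folds. The FLRT proteins are fibronectin leucine-rich transmembrane proteins that act as adhesion molecules between migrating neurons and, when shed from the cell surface, as repellent ligands for UNC5 receptors. Latrophilins (ADGRL1, ADGRL2 and ADGRL3) and UNC5 receptors bind them from other cells, and mice without both FLRT1 and FLRT3 form cortical sulci.

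Levels are given as FPKM, fragments per kilobase of transcript scaled to library size, scaled between libraries by a factor of 0.946 to 1.06. They are per length and can be compared between genes as far as the annotated entries capture them. All 4 genes were at or above 1 scaled FPKM in every library, so the filter on low values did not select them by layer. Across the 14107 genes tested, the median level was 5.50 in CP, 5.79 in OSVZ, 5.63 in ISVZ and 6.07 in VZ. FLRT3 lay above that median in CP, OSVZ and ISVZ, and FLRT1 lay below it in every layer. Differences were tested with limma on log2(scaled FPKM + 1) and Benjamini-Hochberg adjustment over all tested genes, with a threshold of 0.05; on this scale a difference understates the change of a low gene. In bulk tissue, fewer cells of a type and less RNA per cell cannot be told apart.

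The summed neuron and radial glia markers followed the labels of CP and VZ. Intermediate progenitor markers did not set the subventricular layers apart from VZ. The summed level of 11 neuron markers was 3640 to 4335 scaled FPKM in CP, 1716 to 1871 in OSVZ, 973.3 to 1232 in ISVZ and 483.8 to 793.7 in VZ, and that of 8 radial glia markers was 27.1 to 45.6, 205.1 to 220.3, 305.9 to 402.9 and 742.5 to 871.9 in the same layers. Single neuron markers did not all follow their sum. In CP minus the mean of the other layers, 9 of the 11 were called higher in limma and 0 lower. BCL11B averaged 10.9 ± 2.85 in CP, against 25.5 ± 9.80 in ISVZ (SD, n = 3). NEUROD2 averaged 73.9 ± 8.93 in CP, against 91.8 ± 24.4 in OSVZ (SD, n = 3). Intermediate progenitor markers (5 of 6 listed genes found) summed to 53.7 to 64.4 in CP, 195.4 to 311.1 in OSVZ, 294.6 to 429.9 in ISVZ and 329.6 to 404.3 in VZ. Among them, EOMES, a transcription factor of intermediate progenitors, averaged 44.2 ± 9.52 in OSVZ, 54.5 ± 21.5 in ISVZ and 57.3 ± 13.5 in VZ (SD, n = 3). Some libraries stood apart in other markers. Choroid plexus and ependyma markers summed to 560.3, 2656 and 61.9 in VZ 1 to 3, against at most 52.0 elsewhere. Interneuron markers summed to 128.8 in ISVZ 1, and to 485.7 and 450.0 in ISVZ 2 and ISVZ 3.

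Of the 4 genes, 3 differed among the layers in limma's F test, FLRT3 (adjusted p = 0.00137), TRNP1 (adjusted p = 0.0167) and FLRT2 (adjusted p = 0.0285). The background is high, since 51.8% of all tested genes were called in that test. FLRT1 did not pass (adjusted p = 0.281). The 3 genes that passed had different profiles, with the means of FLRT3 in the order CP, OSVZ, ISVZ and VZ, TRNP1 high in CP, and FLRT2 lowest in OSVZ. The same 3 genes were higher in CP than the mean of OSVZ, ISVZ and VZ, a direction in which 24.0% of tested genes were called; 28.7% were called lower there and 52.7% in either direction.

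**Figure D1:**
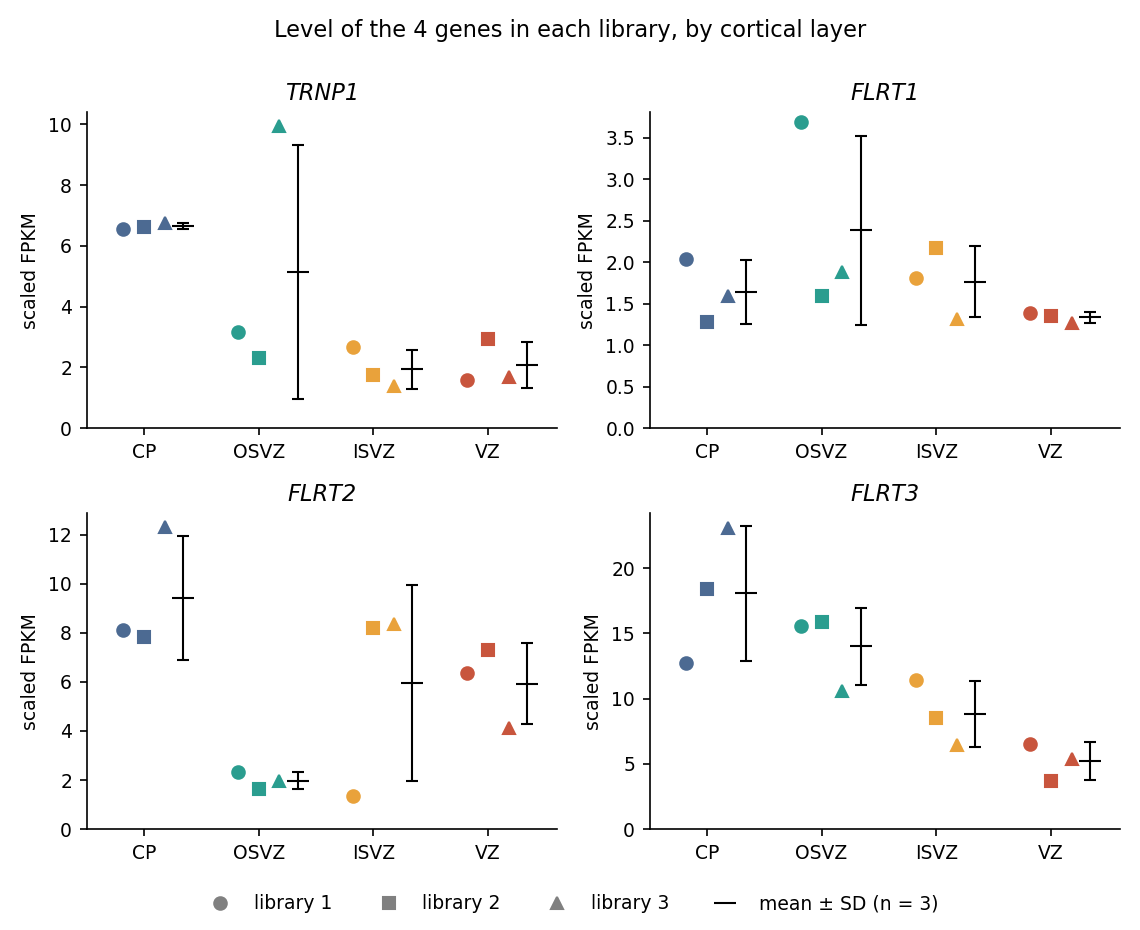
Scaled FPKM (vertical axes, starting at 0) of TRNP1, FLRT1, FLRT2 and FLRT3 in the 12 libraries by layer, with the layer mean ± SD (n = 3) beside the points. TRNP1 in OSVZ 3 (9.95) and FLRT2 in ISVZ 1 (1.35) lie far from the other libraries of their layer.

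TRNP1 was highest in the neuronal layer. Its level was 6.56, 6.61 and 6.75 scaled FPKM in CP 1 to 3, against 3.17, 2.30 and 9.95 in OSVZ 1 to 3, 2.66, 1.76 and 1.398 in ISVZ 1 to 3, and 1.59, 2.95 and 1.69 in VZ 1 to 3. The CP libraries lay close together and above every ISVZ and VZ library, while OSVZ was split, with OSVZ 3 above CP and the other two near the ISVZ and VZ range. Means were 6.64 ± 0.0949 in CP, 5.14 ± 4.19 in OSVZ, 1.94 ± 0.650 in ISVZ and 2.08 ± 0.756 in VZ (SD, n = 3). In CP the mean was 3.43 times that of ISVZ and 3.20 times that of VZ.

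In the limma fit TRNP1 was higher in CP than the mean of the other layers by 1.09 ± 0.30 log2 units (SE, adjusted p = 0.00957). It was higher in CP than in ISVZ by 1.402 ± 0.36 (adjusted p = 0.00858) and than in VZ by 1.34 ± 0.36 (adjusted p = 0.00901). The step between ISVZ and VZ was -0.06, with a 95% interval of -0.86 to 0.74 that leaves room for a change in either direction. The order by mean was CP, OSVZ, VZ and ISVZ, and no neighbouring pair in it passed the test with all libraries.

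The size of the TRNP1 steps from CP to OSVZ and from OSVZ to VZ depended on OSVZ 3, while their sign did not. CP minus OSVZ was 0.52 ± 0.36 with all libraries (adjusted p = 0.305), and 1.04 without OSVZ 3 (limma, adjusted p = 0.00570). OSVZ minus VZ was 0.82 ± 0.36 with all libraries (adjusted p = 0.119). It was 1.16 without OSVZ 2 (adjusted p = 0.0370) and 0.30 without OSVZ 3 (adjusted p = 0.375). The deposited bounds of TRNP1 in OSVZ 3, 9.20 to 10.7 on the scaled level, did not touch those of any other library, the highest of which was 7.51 in CP 3. The neuron markers of OSVZ 3 summed to 1871, against 1774 and 1716 in OSVZ 1 and OSVZ 2. RELN, which encodes the secreted protein reelin, was at 27.4 in OSVZ 3, against 2.91 and 3.99 in OSVZ 1 and OSVZ 2. The part of these differences in the TRNP1 level of that library was not tested.

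The genes most like TRNP1 shared the high value in OSVZ 3. By Pearson r on the log2 level over the 12 libraries they were GPRIN2, a gene linked to neurite outgrowth (0.983), FBXO6, an F-box protein (0.976), MAP1A, a microtubule-associated protein of neurons (0.970), RAB6B, a Rab GTPase of neurons (0.969), and XKli1, annotated as a copy of XK (0.968). MAP1A was at 13.4, 11.03 and 11.6 scaled FPKM in CP 1 to 3 and at 8.004, 5.99 and 17.8 in OSVZ 1 to 3. RAB6B was at 35.8, 35.2 and 38.0 in CP and at 20.9, 18.5 and 44.4 in OSVZ. Both genes had their highest level of all 12 libraries in OSVZ 3, as TRNP1 did. Genes picked by their correlation with TRNP1 over these same libraries tend to share its highest value, so this describes the choice. The libraries share their layers, so these correlations describe the profile and carry no p. Ranked by Spearman rho, 1 of these 5 genes remained, FBXO6.

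FLRT3, an adhesion molecule and UNC5 ligand, had the highest FLRT mean in CP, OSVZ and ISVZ, and its means ran down in order through CP, OSVZ, ISVZ and VZ. Its level was 12.7, 18.4 and 23.1 scaled FPKM in CP 1 to 3, against 15.6, 15.9 and 10.6 in OSVZ, 11.5, 8.52 and 6.43 in ISVZ, and 6.55, 3.67 and 5.40 in VZ. CP lay above all ISVZ and VZ libraries, OSVZ lay above all VZ libraries, and each layer overlapped its neighbour. Means were 18.1 ± 5.17 in CP, 14.0 ± 2.97 in OSVZ, 8.80 ± 2.53 in ISVZ and 5.21 ± 1.45 in VZ (SD, n = 3).

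Between neighbouring layers, the steps of FLRT3 were 0.33 for CP minus OSVZ (adjusted p = 0.369, or 0.14 to 0.55 when 1 library was left out), 0.63 for OSVZ minus ISVZ (adjusted p = 0.211) and 0.66 for ISVZ minus VZ (adjusted p = 0.158) on the log2 scale, and none of the 3 passed in limma. Layers further apart did differ. FLRT3 was higher in CP than in VZ by 1.61 ± 0.26 (adjusted p = 3.06e-04), in CP than in ISVZ by 0.95 ± 0.26 (adjusted p = 0.0111), and in OSVZ than in VZ by 1.28 ± 0.26 (adjusted p = 0.00407). FLRT3 was the only one of the 4 genes called in OSVZ minus VZ, where 27.9% of tested genes were called (11.7% higher and 16.2% lower). The call in CP minus ISVZ was lost without ISVZ 3 (0.77, adjusted p = 0.0503).

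**Figure D2:**
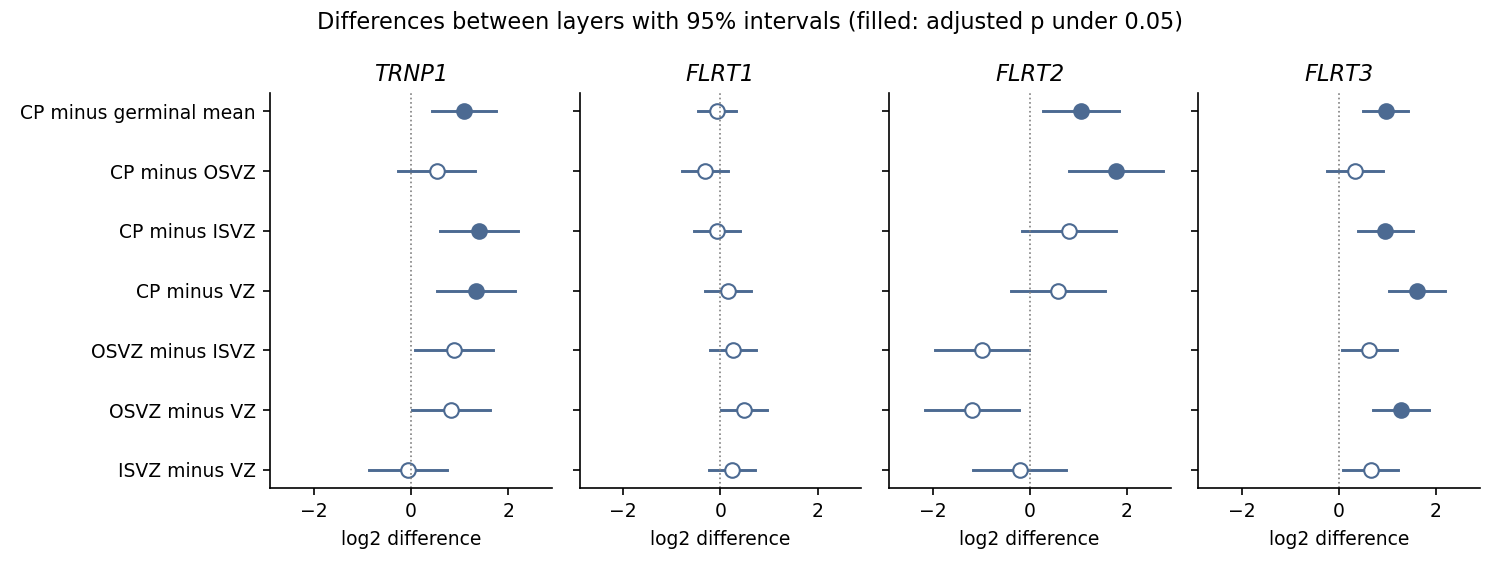
Log2 differences between layers (horizontal axis) from the limma fit with 95% intervals, for TRNP1, FLRT1, FLRT2 and FLRT3; filled points passed at an adjusted p under 0.05. The germinal mean is that of OSVZ, ISVZ and VZ. FLRT2 in CP minus OSVZ has the largest difference plotted (1.79).

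Genes with the profile most like FLRT3 were BHLHE22, a transcription factor of projection neurons (Pearson r = 0.985 over the 12 libraries), SLC44A5, a choline transporter-like protein (0.973), PDE7A, a cyclic AMP phosphodiesterase (0.962), ST8SIA2, a polysialyltransferase (0.955), and IGSF3, an immunoglobulin superfamily protein (0.952). BHLHE22 averaged 165 ± 46.1 scaled FPKM in CP, 96.9 ± 24.3 in OSVZ, 39.8 ± 21.8 in ISVZ and 14.9 ± 7.51 in VZ (SD, n = 3), with the layers in the order they had for FLRT3. By Spearman rho, 3 of these 5 genes were again among the closest.

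FLRT3 lies inside MACROD2, a gene for a mono-ADP-ribosyl hydrolase, in the deposited annotation. FLRT3 is TSDBGID.2438 on chromosome 10 from 90994483 to 91008449, and MACROD2 spans 2290089 bases around it. MACROD2 averaged 3.11 ± 0.935 in CP, 1.52 ± 0.109 in OSVZ, 0.782 ± 0.237 in ISVZ and 0.761 ± 0.206 in VZ (SD, n = 3), also highest in CP. Its highest library value, 4.05, was below the FLRT3 level of every library but VZ 2 (3.67). The use of strand is not stated, so reads shared by overlapping genes could have been divided between them.

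FLRT2, which like FLRT3 binds UNC5D and latrophilins, had a dip in the OSVZ. Its level was 8.11, 7.81 and 12.3 scaled FPKM in CP 1 to 3, against 2.34, 1.64 and 1.96 in OSVZ, 1.35, 8.21 and 8.35 in ISVZ, and 6.38, 7.30 and 4.11 in VZ. All OSVZ libraries lay below all CP and VZ libraries. ISVZ was split, with ISVZ 1 below every OSVZ library, and ISVZ 2 and ISVZ 3 above every VZ library. Means were 9.42 ± 2.52 in CP, 1.98 ± 0.348 in OSVZ, 5.97 ± 3.999 in ISVZ and 5.93 ± 1.64 in VZ (SD, n = 3), so the CP mean was 4.76 times that of OSVZ.

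CP minus OSVZ was 1.79 ± 0.44 log2 units for FLRT2 (SE, limma, adjusted p = 0.0105), and FLRT2 was the only one of the 4 genes called there, against 31.0% of all tested genes (13.6% higher and 17.3% lower). OSVZ minus VZ was -1.19 ± 0.44 (adjusted p = 0.0654) and OSVZ minus ISVZ was -0.98 ± 0.44 (adjusted p = 0.243), and neither passed with all libraries. By mean the order was CP, ISVZ, VZ and OSVZ. CP minus ISVZ (0.80, adjusted p = 0.160) and ISVZ minus VZ (-0.21, 95% interval -1.18 to 0.76) did not pass, and CP minus ISVZ was 0.14 without ISVZ 1 (adjusted p = 0.654). CP minus VZ did not pass either (0.59, adjusted p = 0.286), although the libraries of these 2 layers did not overlap.

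ISVZ 1 decided several of these calls. Without it, OSVZ minus ISVZ was -1.64 (limma, adjusted p = 0.00837), OSVZ minus VZ kept its -1.19 and passed (adjusted p = 0.00228), CP minus VZ kept its 0.59 and passed (adjusted p = 0.0331), and the F test gave adjusted p = 2.19e-04. The F test for FLRT2 also turned on other libraries, with adjusted p = 0.0521, 0.0504 and 0.0732 without CP 1, CP 2 or CP 3, and 0.0568, 0.0846 and 0.0684 without OSVZ 1, OSVZ 2 or OSVZ 3. The difference between CP and the mean of the other layers was 1.06 ± 0.36 (adjusted p = 0.0277), and lost its call without CP 1 (1.14, adjusted p = 0.0556), CP 2 (1.17, adjusted p = 0.0522) or CP 3 (0.87, adjusted p = 0.121).

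Interneuron markers differed along with FLRT2 among the germinal libraries. Their summed level (7 genes, all of them tested) was 72.7 to 123.8 in OSVZ and 128.8 in ISVZ 1, where FLRT2 was at 2.34 or less, against 485.7 and 450.0 in ISVZ 2 and ISVZ 3 and 255.0 to 381.9 in VZ, where FLRT2 was at 4.11 or more. Among single markers, DLX5, a homeobox gene of the interneuron lineage, was at 11.8 in ISVZ 1, against 63.8 and 65.0 in ISVZ 2 and ISVZ 3. CP went the other way, with interneuron markers at 20.1 to 55.3 and FLRT2 at 7.81 or more. The part of interneurons in the FLRT2 levels was not tested. Across tested genes, ISVZ 1 had a mean Pearson r of 0.962 with the other ISVZ libraries and 0.957 with the OSVZ libraries.

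FLRT2 and an antisense-named entry at its locus both had their highest mean in CP and their lowest in OSVZ. FLRT2 is TSDBGID.21487 on chromosome 5 from 47465672 to 47590460, and the entry FLRT2-AS-1, from 47317494 to 47486968, overlaps its start coordinate. FLRT2-AS-1 was at 3.84, 2.68 and 3.92 scaled FPKM in CP 1 to 3, against 0.816, 0.681 and 0.974 in OSVZ, 0.112, 1.77 and 3.10 in ISVZ, and 1.52, 1.78 and 1.37 in VZ. It too was lowest in ISVZ 1 and low in OSVZ. FLRT2-AS-1 was higher in CP than in OSVZ by 1.29 ± 0.36 (limma, adjusted p = 0.0197). It did not pass the F test (adjusted p = 0.0503), CP minus ISVZ (0.93, adjusted p = 0.0540) or CP minus VZ (0.80, adjusted p = 0.0848). Without stated strand, reads of FLRT2 and of this entry cannot be told apart where they overlap. The other 6 overlapping entries reached at most 0.107.

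FLRT2 shared its profile with COMMD2 (Pearson r = 0.925 over the 12 libraries), CDK17, a cyclin-dependent kinase (0.900), LRRN3, a leucine-rich repeat membrane protein of neurons (0.889), LZIC (0.887) and MFSD14A, a putative transporter (0.867). CDK17 was at 11.9 in ISVZ 1, against 33.1 and 25.0 in ISVZ 2 and ISVZ 3, and at 12.2 to 14.0 in OSVZ. The closest gene to FLRT2 was less close than the closest ones to TRNP1 and FLRT3. By Spearman rho, 1 of these 5, CDK17, remained.

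FLRT1, the FLRT gene whose loss adds to that of FLRT3 in mouse folding, was low in all layers. Its level was 2.04, 1.28 and 1.59 scaled FPKM in CP 1 to 3, against 3.69, 1.59 and 1.88 in OSVZ, 1.81, 2.17 and 1.32 in ISVZ, and 1.39, 1.36 and 1.27 in VZ. The libraries of all layers fell in a common range, except OSVZ 1, whose deposited bounds of 3.22 to 4.16 lay above those of every other library. Means were 1.64 ± 0.385 in CP, 2.39 ± 1.14 in OSVZ, 1.77 ± 0.427 in ISVZ and 1.34 ± 0.0636 in VZ (SD, n = 3).

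CP minus the mean of the other layers was -0.07 for FLRT1, with a 95% interval of -0.46 to 0.31 (limma, adjusted p = 0.747). Differences inside that interval remain possible with 3 libraries a layer. OSVZ minus VZ was 0.48 with an interval of 0.01 to 0.96 (adjusted p = 0.118), and the libraries of these 2 layers did not overlap. Without OSVZ 1 that difference was 0.23 (adjusted p = 0.405). None of the 7 layer contrasts passed for FLRT1. FLRT1 (TSDBGID.11927, chromosome 18, 54866997 to 54952019) lies inside MACROD1, another ADP-ribosyl hydrolase gene, whose library values of 1.11 to 3.26 cover much the same range, so its level is uncertain. Its closest genes by Pearson r were ABL2 (0.850), BSN (0.837), ASB6 (0.826), APC2 (0.823) and STAC3 (0.820).

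The remaining layer contrasts completed the order of the 4 genes. In CP minus ISVZ, TRNP1 and FLRT3 were called, both higher, against 21.6% of tested genes called higher, 24.2% lower and 45.9% in either direction. In CP minus VZ the same pair was called higher, against 23.9% of tested genes called higher, 28.7% lower and 52.6% in either direction. OSVZ minus ISVZ called 0 of the 4 by limma, and called 0.603% of all tested genes. At an unadjusted p under 0.05 there were 3 of the 4, and 2822 of the 14107 tested genes. ISVZ minus VZ called 0 of the 4, and called 8.71% of all tested genes, 1.54% higher and 7.17% lower (217 genes higher and 1012 lower, or 363 higher and 832 lower after quantile normalisation). In that contrast 1 of the 4 was at an unadjusted p under 0.05, as were 3189 of the 14107 tested genes.

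The mix of FLRT genes changed with the layer. The summed level of FLRT1, FLRT2 and FLRT3 averaged 29.1 ± 7.19 scaled FPKM in CP, 18.4 ± 3.63 in OSVZ, 16.5 ± 2.17 in ISVZ and 12.5 ± 1.78 in VZ (SD, n = 3). FLRT3 made up 61.6% ± 5.67 of that sum in CP, 76.2% ± 6.01 in OSVZ, 54.5% ± 20.9 in ISVZ and 41.9% ± 10.7 in VZ. FLRT2 made up 32.4% ± 3.59 in CP, 11% ± 2.50 in OSVZ, 34.8% ± 22.6 in ISVZ and 47.3% ± 10.8 in VZ. The FLRT2 share was thus smallest in OSVZ among the layer means, while its share in ISVZ 1 was 9.24%, within the OSVZ range of 8.59% to 13.6%. FLRT1 never exceeded 17.1% of the sum in any library. These shares are descriptions and were not tested.

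**Figure D3:**
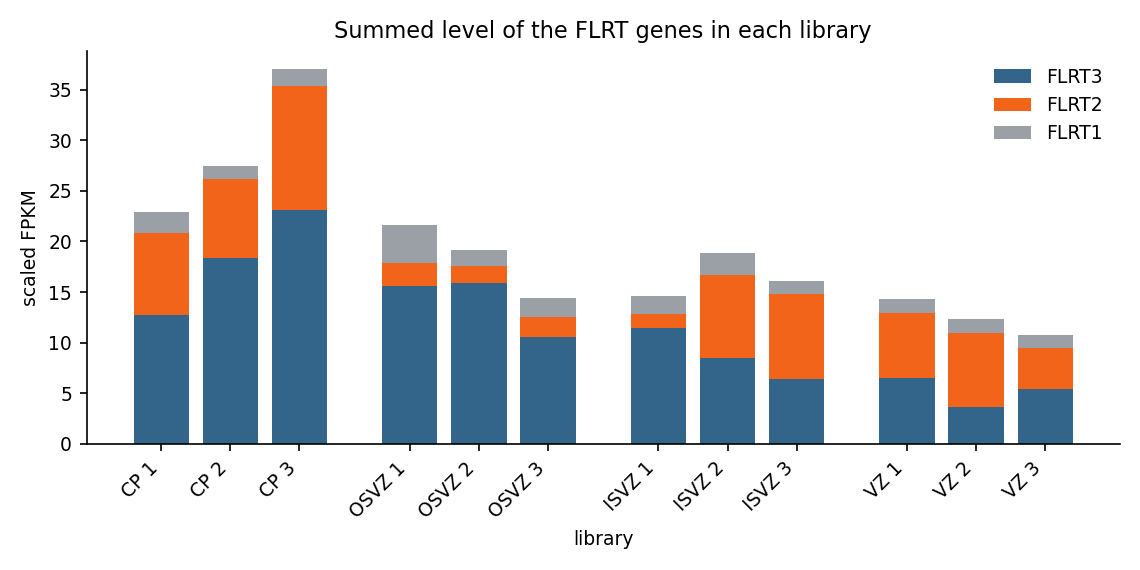
Scaled FPKM of FLRT3, FLRT2 and FLRT1 stacked for each of the 12 libraries (bars start at 0). The sum is 22.9 to 37.0 in CP, and the FLRT2 segment is small in the OSVZ libraries and in ISVZ 1.

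Receptors and partners of the FLRT proteins were read from a list of 20 genes. All but TENM2 matched a symbol in the tables, and these 19 were tested. The F test called 15 of the 19, against 51.8% of all tested genes. In CP minus the mean of the other layers 7 were higher and 8 lower, against 24.0% and 28.7% of all tested genes, with a median of 0.22 on the log2 scale against -0.05 over all tested genes. That median was -0.34 without CP 3 (5 higher and 6 lower), 0.10 without CP 1 (4 higher and 8 lower), 0.06 without ISVZ 3 and 0.11 without VZ 2, so its sign rests on CP 3. In OSVZ minus VZ 6 were higher and 4 lower, against 11.7% and 16.2%, with a median of 0.22 against -0.02. Without OSVZ 1, without VZ 2, or with no filter, 3 were higher and 3 lower there, and the median was 0.12 without OSVZ 2.

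Latrophilins are adhesion receptors that bind FLRT proteins across synapses and between migrating cells, and ADGRL1, ADGRL2 and ADGRL3 each had their highest mean in CP. ADGRL2 was at 43.9, 39.4 and 44.8 scaled FPKM in CP 1 to 3, against 13.2 to 17.4 in OSVZ, 11.5 to 14.8 in ISVZ and at most 14.4 in VZ. All CP libraries were above all others, and CP minus the mean of the other layers was 1.59 ± 0.10 log2 units (SE, adjusted p = 4.76e-07). ADGRL3 was at 6.61 ± 0.406 in CP, 6.46 ± 0.595 in OSVZ, 3.37 ± 1.26 in ISVZ and 1.95 ± 0.277 in VZ (SD, n = 3), and was higher in OSVZ than in VZ by 1.34 ± 0.19 (adjusted p = 6.91e-04). ADGRL1 averaged 12.6 ± 1.85 in CP, 11.9 ± 3.13 in OSVZ, 8.19 ± 1.96 in ISVZ and 6.89 ± 1.04 in VZ (SD, n = 3), and CP minus VZ was 0.79 ± 0.20 (adjusted p = 0.00647). ADGRL4, a relative of the latrophilins known from blood vessels and also on the list, did not pass the F test (adjusted p = 0.0763).

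UNC5 receptors mediate repulsion from FLRT proteins and netrin. Of the 4 measured, UNC5A and UNC5D had their highest mean in OSVZ and UNC5C in CP, while UNC5B was near level outside CP. UNC5D, the receptor through which FLRT2 acts on migrating cortical neurons in the mouse, was at 3.33, 5.58 and 4.58 scaled FPKM in CP 1 to 3, against 25.8, 35.3 and 22.1 in OSVZ, 32.6, 21.2 and 11.5 in ISVZ, and 13.9, 3.68 and 5.68 in VZ. OSVZ lay above CP and VZ in every library. UNC5D was lower in CP than in OSVZ by a log2 difference of -2.38 ± 0.42 (adjusted p = 0.00173) and higher in OSVZ than in VZ by 1.86 ± 0.42 (adjusted p = 0.00721). The OSVZ, which had the lowest FLRT2 mean, thus had the highest UNC5D mean, and ISVZ 1 had the lowest FLRT2 and the highest UNC5D of the ISVZ libraries. Other libraries did not follow that opposition. ISVZ 2 had FLRT2 at 8.21 and UNC5D at 21.2, and VZ 1 had more of both genes than VZ 3. UNC5C averaged 3.74 ± 2.09 in CP, against 1.45 ± 0.266 in OSVZ, 0.433 ± 0.0942 in ISVZ and 0.480 ± 0.0968 in VZ (SD, n = 3), and CP minus the mean of the other layers was 1.34 ± 0.23 (adjusted p = 5.12e-04). UNC5A averaged 12.1 ± 3.04 in CP, 24.7 ± 6.47 in OSVZ, 13.1 ± 11.2 in ISVZ and 3.79 ± 1.80 in VZ (SD, n = 3), and OSVZ minus VZ was 2.47 ± 0.49 (adjusted p = 0.00352). UNC5B had its lowest mean in CP, 0.895 ± 0.118, against 1.76 ± 0.363 in OSVZ, 1.585 ± 0.22 in ISVZ and 1.73 ± 0.0815 in VZ (SD, n = 3). CP minus VZ was -0.53 ± 0.13 for UNC5B (adjusted p = 0.00623).

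**Figure D4:**
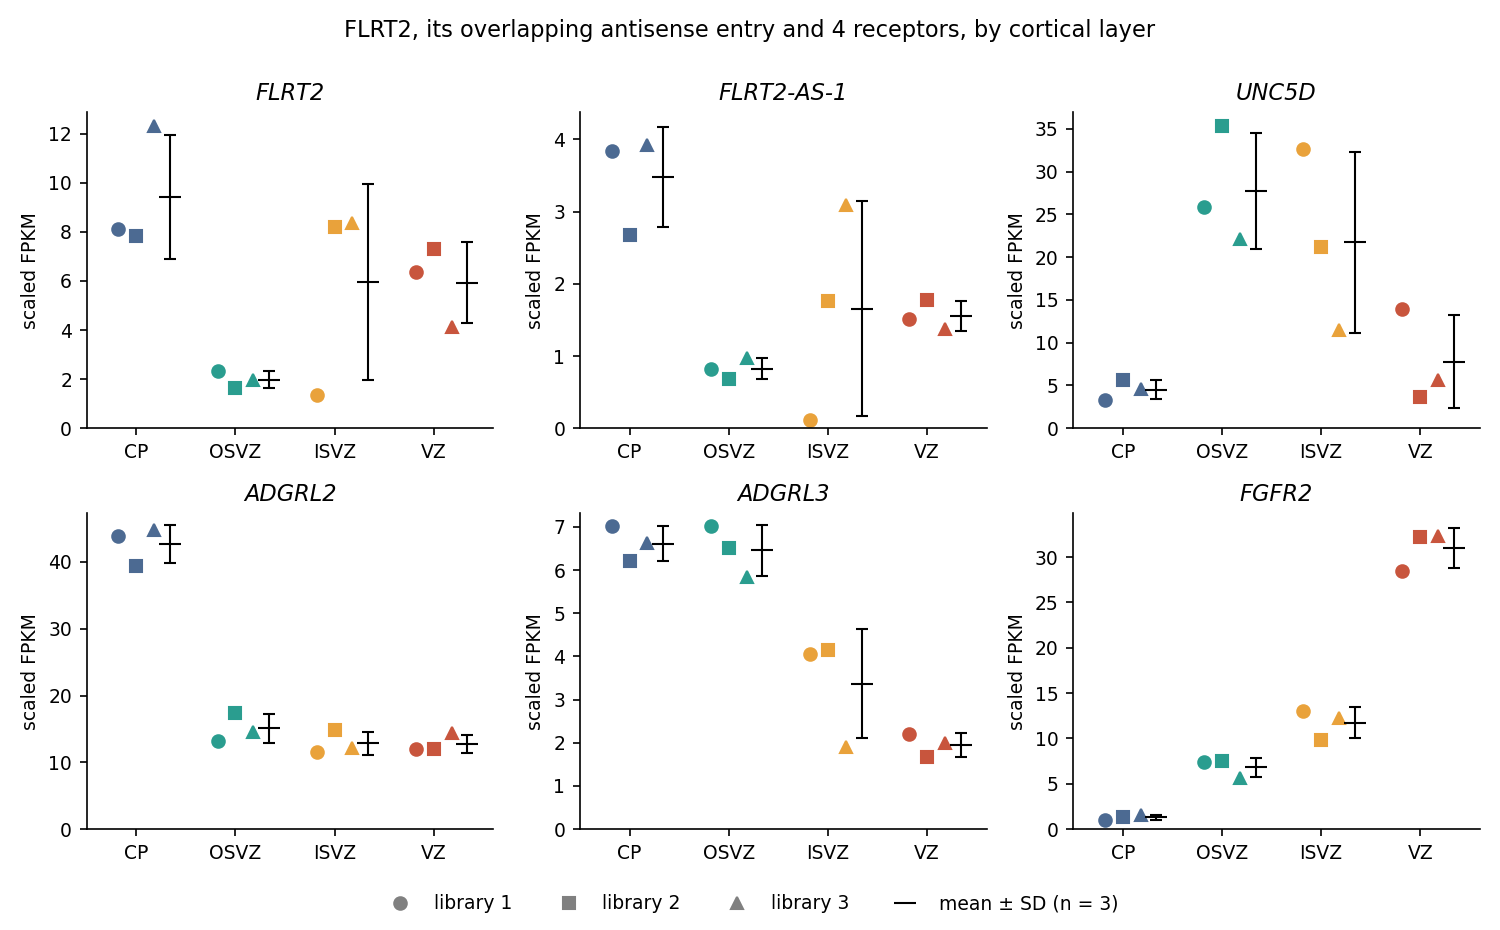
Scaled FPKM (vertical axes, starting at 0) of FLRT2, the overlapping entry FLRT2-AS-1 and the receptors UNC5D, ADGRL2, ADGRL3 and FGFR2 by layer, with the layer mean ± SD (n = 3). UNC5D is high in OSVZ, where FLRT2 is low, and ADGRL2 is high in CP.

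Fibroblast growth factor receptors, with which FLRT proteins associate in the membrane, were highest in VZ. FGFR2 was at 1.32 ± 0.260 in CP, 6.83 ± 1.03 in OSVZ, 11.7 ± 1.69 in ISVZ and 31.0 ± 2.23 in VZ (SD, n = 3), and CP minus VZ was -3.79 ± 0.14 log2 units (SE, adjusted p = 3.21e-08). FGFR3 (-4.10 ± 0.34, adjusted p = 2.34e-06) and FGFR1 (-2.19 ± 0.23, adjusted p = 1.08e-05) were lower in CP than in VZ too. GPC3, a glypican, was at 0.256 ± 0.122 in CP and 3.14 ± 1.79 in VZ (SD, n = 3), and CP minus VZ was -1.64 ± 0.32 (adjusted p = 0.00116). FLRT3 and these receptors thus had opposite ends of the layers as their highest, CP for FLRT3 and VZ for the receptors. The other partners named here did not pass the F test, TENM3, a teneurin (adjusted p = 0.436), ROBO1, a slit receptor with which FLRT3 interacts (0.0569), and DCC, a netrin receptor (0.0568).

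Other genes linked to cortical folding or malformation in other species formed a list of 27, all found by symbol, of which 21 passed the filter. The F test called 15 of the 21, against 51.8% of all tested genes. In CP minus the mean of the other layers 4 were higher and 11 lower, against 24.0% and 28.7% of all tested genes, with a median of -0.46 against -0.05. The median was -0.29 with quantile normalisation and -0.14 with no filter, where 26 of the list were tested. TRNP1, FLRT2 and FLRT3 were higher in that contrast. The 6 below the filter were FGF2, PAFAH1B1, TUBB2B, TUBG1, ASPM and CEP83, the last of which was listed at 0 in every library. PAFAH1B1 reached at most 0.0045 scaled FPKM in any library, TUBB2B 0.115 and TUBG1 0.071. Whether the entries under these symbols hold all reads of their genes was not tested, so such values do not show that a gene is silent.

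The lower group included genes of progenitors and of the cell cycle. PAX6, which encodes a homeodomain regulator of radial glia, averaged 0.434 ± 0.295 in CP, 15.5 ± 2.76 in OSVZ, 19.6 ± 7.43 in ISVZ and 28.6 ± 7.46 in VZ (SD, n = 3), and differed by -3.89 ± 0.22 log2 units (SE, adjusted p = 1.70e-07). ADGRG1, an adhesion receptor of the polymicrogyria locus, differed by -1.65 ± 0.11, the cell cycle genes CCND1 and CDK4 by -1.92 ± 0.14 and -1.57 ± 0.12, and the actin-binding FLNA by -1.72 ± 0.17. SMARCC1, a core subunit of the BAF chromatin remodelling complex, differed by -1.57 ± 0.14. The higher group included TUBB3, a neuronal tubulin (1.47 ± 0.18), and LUM, a matrix proteoglycan (3.13 ± 0.28). LUM was also on a list of 5 meninges markers, which summed to 14.6 to 20.8 scaled FPKM in CP, with LUM alone at 12.9 to 17.0. Of the 3 tested genes of that list, 1 was called higher in CP minus the mean of the other layers and 0 lower. The part of meninges in the LUM level was not tested. The profile of TRNP1 was unlike that of PAX6, with its lowest means in ISVZ and VZ, where PAX6 had its highest. RELN (adjusted p = 0.0727), DYNC1H1, a dynein heavy chain (0.0870), ARFGEF2 (0.200) and the collagen COL3A1 (0.311) did not pass the F test.

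TRNP1 (TSDBGID.2655) is annotated on chromosome 13 from 93514506 to 93521001, inside an entry named GOLGA2 that reached at most 0.321 scaled FPKM. Pearson r between the 4 genes over the 12 libraries was 0.573 for TRNP1 and FLRT3, 0.361 for FLRT1 and FLRT3, 0.140 for TRNP1 and FLRT1, 0.043 for TRNP1 and FLRT2, -0.095 for FLRT2 and FLRT3, and -0.339 for FLRT1 and FLRT2. These values describe 12 libraries that share 4 layers, and no p is given. No copy of any of the 4 genes was annotated under a suffixed name.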

How the data were processed

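RNA was sequenced from 12 libraries, 3 for each of 4 laser-captured cortical layers. Each library has 1 deposited table of FPKM and its confidence bounds, laid out as a Cufflinks gene table per the file headers. The submitters' processing notes list HISAT2 and Cufflinks. Versions, genome build, annotation and strand setting: not given in the sources used here. Coordinates are those of the deposited tables. The labels give embryonic day 37 and the table names day 35; the labels were followed.

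Entries sharing an ID (360 IDs) were summed and 4 IDs with a failed status left out. Libraries were scaled by the median ratio of each to the geometric mean of all, taken over 10200 genes that reached 1 FPKM in every library. The 14107 genes reaching 1 in 3 or more libraries entered a fit with limma 3.58.1 (R 4.3.3) on log2(scaled FPKM + 1), with 1 coefficient per layer, all 12 libraries in the fit, 8 residual degrees of freedom, empirical Bayes with an intensity trend, and two-sided tests. The fit was tested on simulated data. FPKM gives no read counts, so depth is unknown; the median upper half-width of the deposited bounds was 7.80% to 12.8% of the value over genes at 1 FPKM or more. Summed FPKM was 244666 to 276629, and 0 pairs of libraries were identical.

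The members and lists were chosen with earlier results of these data known. Genes named are the 4 members, up to 8 passing (smallest F test p) and 4 other genes of each list, and the 5 genes closest to each member by Pearson r; DLX5, EOMES, ADGRL1, UNC5A, UNC5B and the overlapping MACROD1, MACROD2, GOLGA2 and FLRT2-AS-1 were named after their values were seen. Alternatives were the FPKM as deposited, quantile normalisation, a pseudocount of 0.1, no filter, a filter of 5, no intensity trend, a replicate block, leaving out each library, and, chosen after seeing the data, leaving out ISVZ 1 and OSVZ 3 together.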

Additional observations from a re-analysis of the deposited data

How the results depend on the processing

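Of 632 recomputed values of the 4 genes, 596 kept their direction and their side of the threshold. Without a filter, calls were lost for TRNP1 (F test, adjusted p = 0.0818), FLRT2 (F test 0.127; CP minus OSVZ 1.79 and CP minus the mean of the other layers 1.06, values unmoved) and FLRT3 (CP minus ISVZ 0.95); more genes enter the adjustment there. Quantile normalisation turned differences that had not passed, FLRT1 in CP minus the mean of the other layers (0.10) and CP minus ISVZ (0.04) and TRNP1 in ISVZ minus VZ (0.08). Without ISVZ 1 and OSVZ 3 together, calls were gained for TRNP1 in CP minus OSVZ (1.04) and for FLRT2 in CP minus VZ (0.59), OSVZ minus ISVZ (-1.64) and OSVZ minus VZ (-1.19), and FLRT2 in ISVZ minus VZ turned to 0.45.

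Leaving out 1 library at a time, FLRT2 ranged from 2.19e-04 to 0.0846 (F test adjusted p), 0.84 to 1.17 (CP minus the mean of the other layers), 0.39 to 0.74 (CP minus VZ), -1.64 to -0.65 (OSVZ minus ISVZ), -1.40 to -1.05 (OSVZ minus VZ), 0.14 to 1.14 (CP minus ISVZ) and -0.54 to 0.45 (ISVZ minus VZ). TRNP1 ranged from 0.18 to 1.04 (CP minus OSVZ), 0.30 to 1.16 (OSVZ minus VZ) and -0.23 to 0.13 (ISVZ minus VZ), FLRT3 from 0.77 to 1.17 (CP minus ISVZ) and 0.14 to 0.55 (CP minus OSVZ), and FLRT1 from -0.18 to 0.03 (CP minus the mean of the other layers), -0.19 to 0.04 (CP minus ISVZ), 0.23 to 0.65 (OSVZ minus VZ) and -0.01 to 0.42 (OSVZ minus ISVZ).

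Over all genes, OSVZ minus ISVZ called 85, and 54 with FPKM as deposited, 231 with quantile normalisation, 19 with a pseudocount of 0.1, 8 without a filter, 299 with a filter of 5, 277 without ISVZ 1 and OSVZ 3, and 2 to 552 without 1 library. ISVZ minus VZ called 1229, and 786 without a filter, 715 with a filter of 5 and 388 to 1384 without 1 library. OSVZ minus VZ called 3937, and 2558 to 3980 without 1 library. With a filter of 5, FLRT1 was not tested, and 9 of 13 tested FLRT partners were called in CP minus the mean of the other layers, against 15 of 19. Over all tested genes, that contrast called 5074 of 8802 with a filter of 5, against 7436 of 14107. The labels do not say what a replicate number marks. Deviations of same-numbered libraries correlated over 0.1 in 16 of 18 pairs (lowest 0.063, median 0.198, against -0.129 for other numbers), and 12 of 12 libraries were closest to their own number, a hint of pairing from the data, not the design. Not every pair passed 0.1, so the numbers were not taken as pairs. The replicate block changed no call of the 4 genes and called 206 genes in OSVZ minus ISVZ. No member fell below the filter, so the permutation test was not needed. The cause of these shifts was not tested.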

Other observations

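Among further entries near FLRT2, LINC-FLRT2-1 and LINC-FLRT2-10 were higher in CP than in the other layers, at 1.56 scaled FPKM or less. Values of any other LINC-FLRT2 entries are not given here. LINC-FLRT2-1, an entry that ends just before the annotated start coordinate of FLRT2, was at 1.07, 0.452 and 1.56 scaled FPKM in CP 1 to 3 and is listed at 0 in the OSVZ, ISVZ and VZ libraries. LINC-FLRT2-10, beyond the end coordinate of the gene, was at 1.28, 0.877 and 0.851 in CP 1 to 3, against 0.138 to 0.275 in OSVZ, 0 to 0.204 in ISVZ and 0 to 0.278 in VZ. Both entries were chosen after their values were seen and were not tested. They do not share the high FLRT2 levels of ISVZ 2, ISVZ 3 and the VZ libraries.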
